A study of Mus musculus with 24 samples.

Results

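The genes described here are a list of 9 hexose carrier genes read in mouse liver, which includes those of both proteins blocked by phloridzin. They were the sodium-glucose cotransporters Slc5a1 and Slc5a2 and the facilitative carriers Slc2a1, Slc2a2, Slc2a3, Slc2a4, Slc2a5, Slc2a8 and Slc2a9, taken from the 18193 genes that the array's annotation pairs with a probe set of their own. Every probe set whose annotation names 1 of these genes and no other was used, which gave 18 probe sets. Of these, 13 passed a filter on low signal and were tested, at least 1 for each gene, and the other 5 are given as values.

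Phloridzin is a plant glucoside that competes with glucose for the sodium-glucose cotransporters. These carriers use the sodium gradient to pull glucose into a cell against its own gradient. The first, encoded by Slc5a1, takes up glucose from the gut, and the second, encoded by Slc5a2, recovers it from the urine in the kidney tubule. The Slc2a carriers only let hexoses run down their gradient, and in hepatocytes the main one, encoded by Slc2a2, carries glucose in after a meal and out during a fast.

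Male BALB/c mice, 6 weeks old on arrival, ate a purified AIN-93G diet with 0 (control), 0.1, 0.5 or 1.0% phloridzin for 14 days, with no genetic change in any group. The labels give 6 mice per diet, caged in groups of 3, and 1 liver array per mouse, 24 in all. The arrays did not behave as 24 separate livers. Over bright genes, 18 arrays formed 8 sets of near-copies of each other. A second, looser rule joined sets of near-copies at 0.5% and at 1.0%. Arrays taken by these rules as 1 RNA were averaged here before any comparison. One such RNA carried the labels of 2 diets, since 0.1% replicates 1, 3 and 6 and 1.0% replicate 1 shared it, and it entered no comparison. This left 11 RNA samples, 4 on the control diet, 3 at 0.1%, 2 at 0.5% and 2 at 1.0%. Without the second rule 13 samples were left. Whether they are 11 mice is not known, and the tests below measure the variation among these RNA samples, which may in part be technical.

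Signals were scaled alike on every array, set to at least 8 and given as log2, so that 3.00 is the lowest possible level. Array medians before scaling ran between 9.49 and 18.0 signal units. The hepatocyte transcript Alb, which encodes albumin, stood between 13.41 and 13.59 in all 11 samples, so the tissue matched its label. Markers of kidney tubule (6 of 6 measured) and intestine (4 of 5), the usual sites of Slc5a2 and Slc5a1, gave summed log2 levels of 6.26 to 6.55 and 10.38 to 10.73 in the phloridzin samples, against 6.16 to 6.58 and 10.53 to 10.85 in the control samples. Most of the intestinal sum was Fabp2, a fatty acid binding protein gene that stood at 10.35 to 10.82 and that hepatocytes express too. Of the kidney markers, Umod, Slc12a1 and Slc22a6 were at the floor in 6, 5 and 7 of the 11 samples. A marker at the floor still adds its floor value to a sum. Such sums, here and below, therefore lie above 3.00 even where no marker has signal.

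No carrier was called at any dose. In limma's test over 22793 probe sets, 0 of the 13 carrier probe sets passed an adjusted p of 0.05 at 0.1%, at 0.5% or at 1.0% phloridzin against control, where 0.00439%, 0% and 0.00439% of all probe sets did. Nor did any pass for the slope on dose, where the background was 0%, or in the F-test over the 4 diets, where it was 0.00877%. At an unadjusted p under 0.05, 0 of 13 carrier probe sets were found at 0.1%, 2 at 0.5% and 0 at 1.0%, beside 9.42%, 5.33% and 6.49% of all probe sets. The slope gave 1 of 13 and the F-test 1 of 13, beside 8.63% and 9.8%. The lowest adjusted p of any carrier probe set was 0.555 at 0.1%, 0.705 at 0.5% and 0.788 at 1.0%. Their median log2 change was 0.11 at 0.1%, 0.06 at 0.5% and -0.01 at 1.0%, with the median of all tested probe sets at -0.01, -0.01 and -0.02. At 0.1%, 11 of the 13 lay above control, against 48.4% of all probe sets. The 3 comparisons share the control samples, so these values are not independent of each other.

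**Figure D1:**
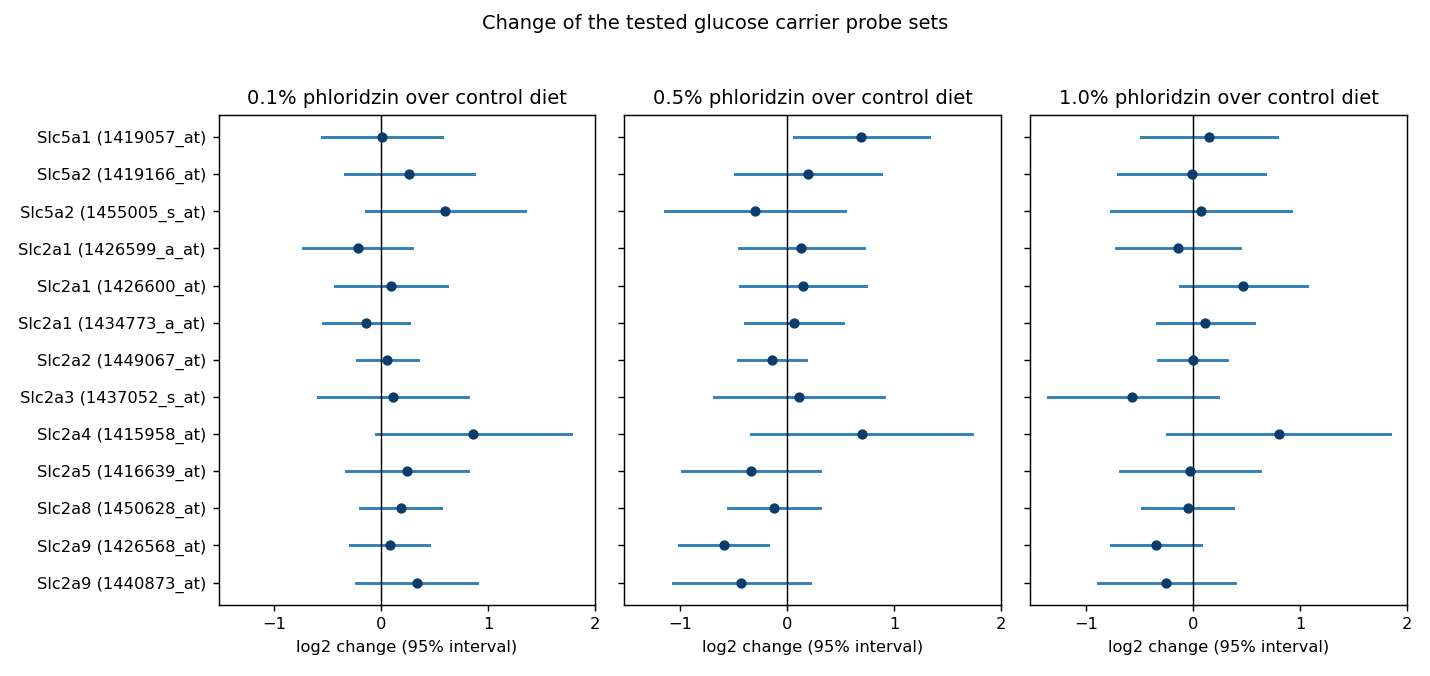
Log2 change of each tested carrier probe set at 0.1%, 0.5% and 1.0% phloridzin over the control diet, with the 95% interval of limma's fit (horizontal axis, log2 units; rows are probe sets). Only Slc5a1 and the brighter Slc2a9 probe set, both at 0.5%, have intervals clear of 0, and neither passed the adjusted threshold.

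Slc2a2, the hepatocyte's own glucose carrier, was well above the floor and stayed within a narrow band on all 4 diets. On the control diet its probe set (1449067_at) read 11.55, 11.44, 11.21 and 11.33 log2 units. The samples at 0.1% read 11.65, 11.18 and 11.47, those at 0.5% read 11.01 and 11.48, and those at 1.0% both read 11.38. The groups overlapped throughout, and the lowest value belonged to 1 of the 2 samples at 0.5%. The log2 change was 0.05 ± 0.13 (SE) at 0.1%, -0.14 ± 0.15 at 0.5% and 0.00 ± 0.15 at 1.0%. Expressed as a fold change, the 95% intervals ran from 0.851 to 1.26 at 0.1%, from 0.727 to 1.14 at 0.5% and from 0.798 to 1.25 at 1.0%. These are bounds for a linear fold on the floored signal, and true changes inside them are not excluded at this number of samples. The level was measured tightly, since arrays of 1 RNA had an SD of 0.05 log2 units, while RNA samples of the same diet had an SD of 0.20. The 4 arrays of the low sample at 0.5% read 10.95, 11.07, 11.07 and 10.94, so each array placed it below every other sample. Without that sample the change at 0.5% was 0.10, and without the other it was -0.38, so 1 RNA set its sign.

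**Figure D2:**
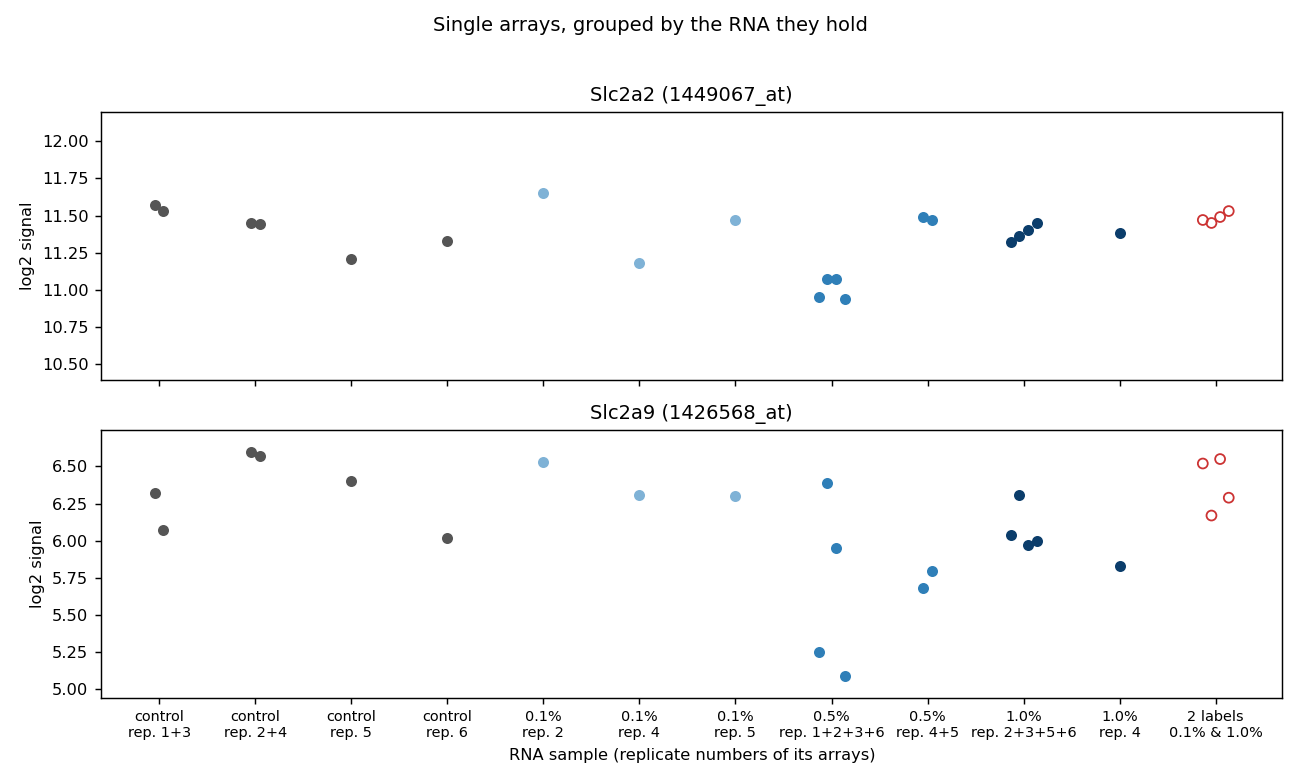
Log2 signal of Slc2a2 and of the brighter Slc2a9 probe set on each of the 24 arrays, grouped along the horizontal axis by the RNA they hold, from control to 1.0% phloridzin, with the RNA of 2 diet labels as open circles. Arrays of 1 RNA agree closely for Slc2a2, while for Slc2a9 the 4 arrays of 1 sample at 0.5% spread from 5.09 to 6.39. Those 4 arrays are joined pairs of near-copies, at 5.25 and 5.09 and at 6.39 and 5.95.

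Slc2a9, which encodes a carrier of urate that also moves hexoses, had the lowest p of the carriers. Its brighter probe set (1426568_at) read 6.20, 6.58, 6.40 and 6.02 on the control diet. It read 6.53, 6.31 and 6.30 at 0.1%, 5.67 and 5.74 at 0.5%, and 6.08 and 5.83 at 1.0%. Both samples at 0.5% lay below every control sample and every sample at 0.1%, and at 1.0% only 1 of the 2 did. The group means were 5.71 ± 0.05 at 0.5% (SD, n = 2) and 6.30 ± 0.25 on the control diet (SD, n = 4). The change at 0.5% was -0.59 ± 0.20 with a 95% interval of -1.01 to -0.18, and its adjusted p in limma was 0.705 (unadjusted 0.00869). At 0.1% it was 0.08 ± 0.17 and at 1.0% -0.35 ± 0.20, with adjusted p-values of 0.909 and 0.788 in limma's test. The slope was -0.50 ± 0.21 per 1% of phloridzin in the diet (limma's adjusted p 0.531), and the F-test over the diets gave an adjusted p of 0.454.

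The second Slc2a9 probe set (1440873_at) was dimmer and moved with the first, with a Pearson correlation of 0.61 over the 11 samples, which share the arrays on which both were read. It read 4.99, 4.88, 5.11 and 4.32 on the control diet and 4.71, 5.67 and 5.06 at 0.1%. It read 4.50 and 4.28 at 0.5%, and 4.60 and 4.56 at 1.0%. Only 1 of the 4 samples at the higher doses lay below the lowest control sample. Its change was -0.43 ± 0.30 at 0.5% and -0.25 ± 0.30 at 1.0%, with adjusted p-values of 0.973 and 0.913 in limma's test. Set against 0.1% in place of control, the change at 0.5% was -0.67 ± 0.21 for the brighter probe set and -0.76 ± 0.32 for this one, with adjusted p-values of 0.383 and 0.465 in the same fit.

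The arrays of the samples at 0.5% limit what the Slc2a9 values can show. The 4 arrays of 1 RNA read 5.25, 6.39, 5.95 and 5.09 for the brighter probe set, which overlaps the range of the control arrays, 6.02 to 6.60. They are joined pairs of near-copies, replicates 1 and 6 at 5.25 and 5.09 and replicates 2 and 3 at 6.39 and 5.95. Over all RNAs with more than 1 array, the SD of this probe set between arrays of 1 RNA was 0.33. Between samples of a diet, some of them averages of arrays, it was lower, at 0.19. For the dimmer probe set the values were 0.66 between arrays and 0.35 between samples. Taken over near-copies of an array only, the SD of the brighter probe set was 0.17. Both samples at 0.5% also had less signal from markers of red cell precursors (3 of 5 measured, led by the heme synthesis gene Alas2), with a summed log2 level of 8.81 to 9.17 there, against 9.49 to 9.87 in the control samples. Their endothelial markers (5 of 5 measured) summed to 9.0 in both, against 9.06 to 9.24 in the control samples. The brightest of these, Stab2, had a mean of 7.92 at 0.5% and 8.26 on the control diet. The means of Pecam1, Tek and Kdr were also lower at 0.5%, for Kdr at 6.81 against 6.83. That of Cdh5 was higher, at 5.94 against 5.62. Bile duct markers (5 of 5, with Cftr at the floor in every sample) summed to 6.26 and 6.28 at 0.5%, against 5.56 to 5.92 in the control samples. The 3′ minus 5′ difference of the Gapdh control probe sets, a sign of RNA quality, was -0.18 log2 units in both samples at 0.5%. In the control samples it was -0.37 to -0.28. The endothelial, bile duct and Gapdh differences were not particular to this dose. At 0.1% the endothelial sums were 8.61 to 9.05 and the Gapdh differences -0.27 to -0.05. The bile duct sums were 5.79 to 6.29 at 0.1% and 5.77 to 6.38 at 1.0%. The part of the differences at 0.5% in the Slc2a9 values was not tested, and in whole liver fewer cells of a type and less RNA per cell cannot be told apart.

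**Figure D3:**
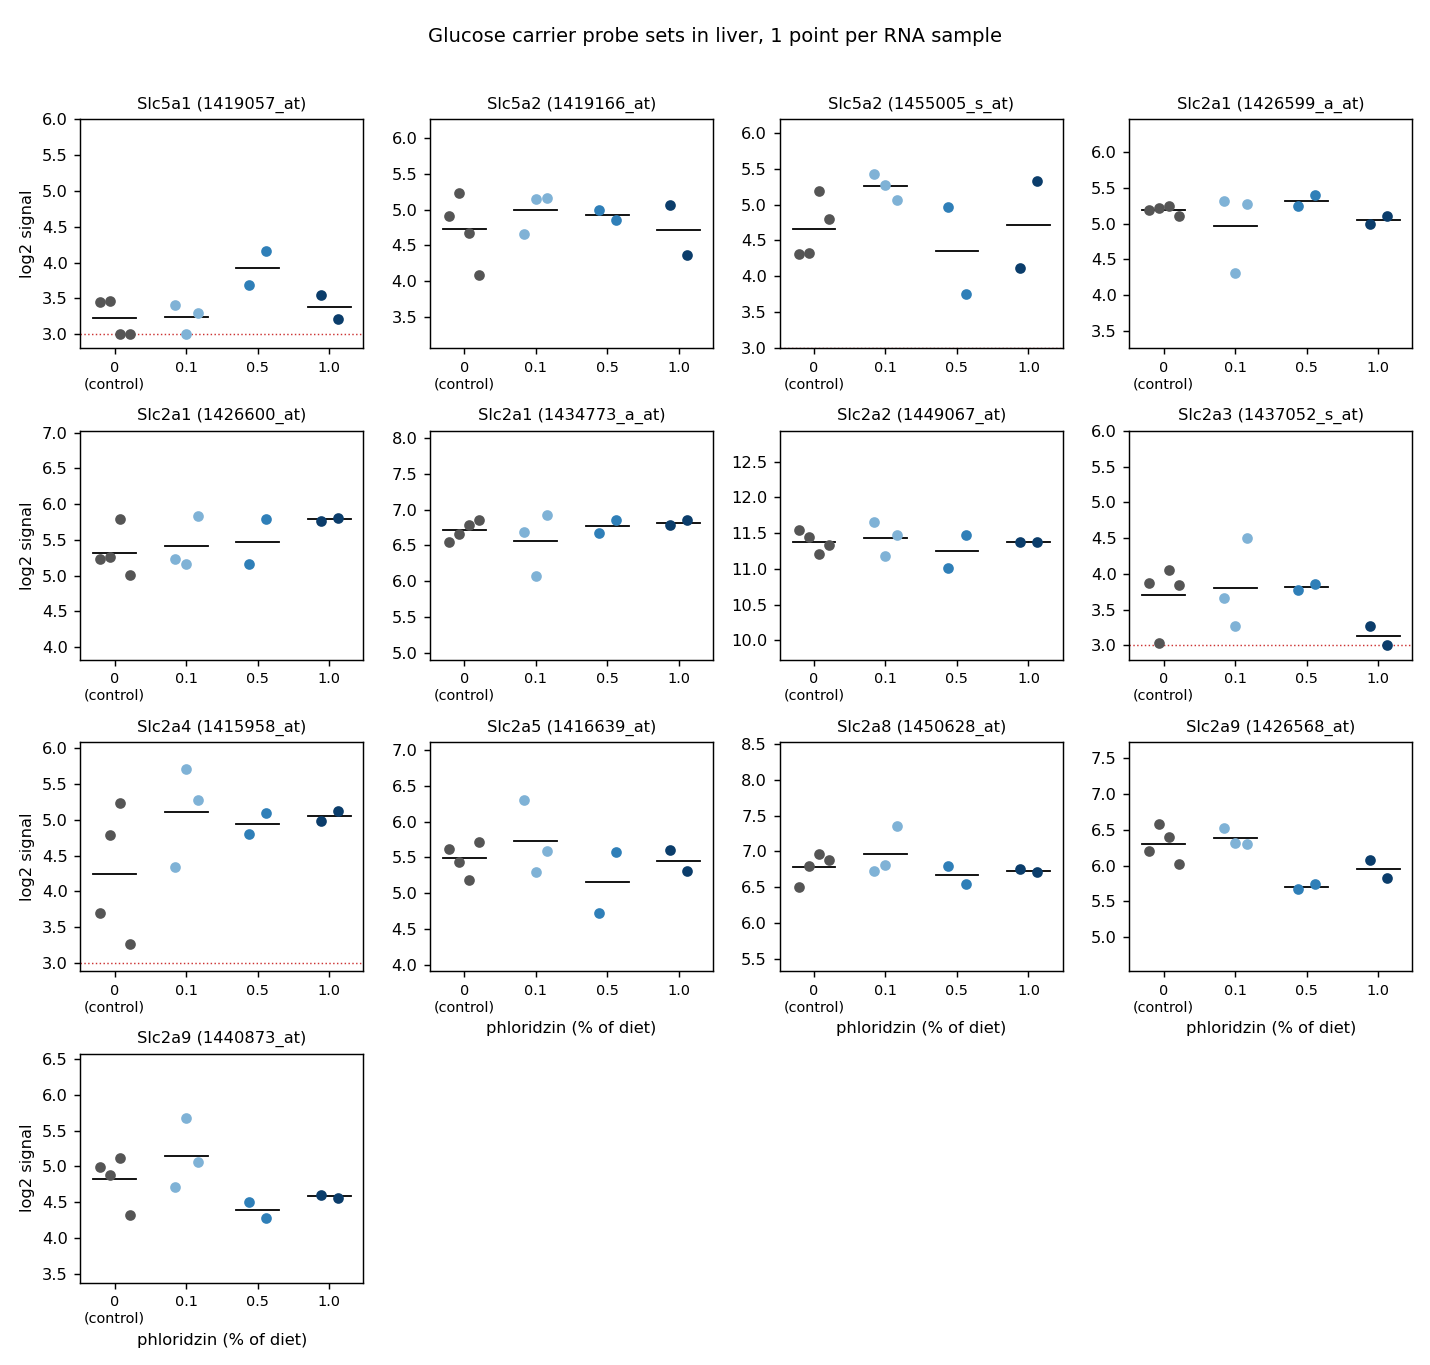
Log2 signal of the 13 tested carrier probe sets by phloridzin in the diet (horizontal axis, percent; control is 0), 1 point per RNA sample, with the group mean as a bar; every panel spans 3.2 log2 units, and the dotted line marks the floor of 3.00. The panels for Slc2a2 and Slc2a8 stay level, both Slc2a9 panels are lowest at 0.5%, and the control samples of Slc2a4 are spread from 3.26 to 5.24.

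Of the targets of phloridzin, Slc5a1 was at or near the lower limit of the measurement in liver. The tested Slc5a1 probe set (1419057_at) read 3.45, 3.46, 3.00 and 3.00 on the control diet. It read 3.41, 3.00 and 3.30 at 0.1%, 3.68 and 4.16 at 0.5%, and 3.54 and 3.21 at 1.0%. The pair at 0.5% lay above the other 9 samples of the comparisons, and 3 of the 11 samples were at the floor. The change at 0.5% was 0.69 ± 0.30 with a 95% interval of 0.06 to 1.32 and an adjusted p of 0.91 in limma's test (unadjusted 0.035). At 0.1% it was 0.01 ± 0.26, and at 1.0% it was 0.15 ± 0.30. The size at 0.5% depended on the floor, at 0.08 with a floor of 16 signal units and 1.14 with a floor of 1. A second Slc5a1 probe set (1455431_at) was at the floor in 9 of the 11 samples, and both samples above it, at 3.17 and 3.31, were on the control diet. Arrays of 1 RNA differed for the tested probe set by an SD of 0.37, more than the 0.26 between samples, some of them averages of arrays.

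The probe sets of Slc5a2, the other target, were above the floor in every sample but did not follow each other, with a Pearson correlation of -0.28 over the 11 samples. The first (1419166_at) read 4.91, 5.23, 4.67 and 4.09 on the control diet and 4.66, 5.15 and 5.16 at 0.1%. It read 4.99 and 4.85 at 0.5%, and 5.06 and 4.37 at 1.0%, so that every diet overlapped the control range. The second (1455005_s_at) read 4.31, 4.32, 5.19 and 4.80 on the control diet and 5.43, 5.28 and 5.06 at 0.1%. It read 4.96 and 3.75 at 0.5%, and 4.11 and 5.33 at 1.0%. At these doses the 2 samples of a dose lay further apart than any of the group means. The arrays of the sample at 3.75 read 3.00 and 4.51, the first of them at the floor. Those of the sample at 4.11 ran from 3.37 to 4.75. At 0.1% the changes were 0.26 ± 0.28 and 0.60 ± 0.35, with 95% intervals of -0.34 to 0.87 and -0.14 to 1.34. At 0.5% they were 0.19 ± 0.32 and -0.30 ± 0.39, with intervals of -0.49 to 0.88 and -1.14 to 0.54. At 1.0% they were -0.01 ± 0.32 and 0.07 ± 0.39, with intervals of -0.70 to 0.67 and -0.77 to 0.91. For the second probe set, leaving out 1 RNA moved the change at 0.5% to between -0.90 and 0.31 and that at 1.0% to between -0.54 and 0.68, so single samples set its sign. A probe set of the "_s_at" kind can bind transcripts of more than 1 gene, and no detection call was used here, so a level of 4 to 5 is not shown to be Slc5a2 transcript.

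Slc2a1, the basal glucose carrier of many cell types, including the endothelium of the brain, was read by 3 probe sets. The brightest (1434773_a_at) read 6.54, 6.66, 6.78 and 6.85 on the control diet. It read 6.69, 6.07 and 6.93 at 0.1%, 6.67 and 6.86 at 0.5%, and 6.78 and 6.85 at 1.0%. A single sample, 0.1% replicate 4, lay below the rest. The same sample was lowest for 1426599_a_at, where it read 4.31 against 4.99 to 5.40 in the other samples, and the 2 probe sets correlated at 0.81 over the 11 samples. In that sample the actin control probe sets read 2.32 log2 units higher at the 3′ end than at the 5′ end, against 1.31 to 1.54 in the control samples. Its endothelial markers (5 of 5 measured) summed to 8.61, against 9.06 to 9.24 in the control samples. In the other samples at 0.1% these markers summed to 8.94 and 9.05. Of the marker means at 0.1%, that of Cdh5 was above control, at 5.76 against 5.62, and the others were below. The part of either difference in the Slc2a1 values of 0.1% replicate 4 was not tested.

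Against control, the brightest Slc2a1 probe set changed by -0.14 ± 0.19 at 0.1%, 0.06 ± 0.21 at 0.5% and 0.11 ± 0.21 at 1.0%. Without 0.1% replicate 4 the first of these values was 0.11. The third probe set (1426600_at) read 5.77 and 5.81 at 1.0%, against 5.23, 5.26, 5.79 and 5.01 on the control diet. One control sample lay between the 2 samples at 1.0%, and the change of 0.47 ± 0.28 had a 95% interval of -0.12 to 1.06 and an adjusted p of 0.794 in limma's test. At that dose the other 2 probe sets gave -0.14 ± 0.27 and 0.11 ± 0.21, so the 3 readings of the gene differed in size and direction.

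Slc2a3, best known as the carrier of neurons, was barely measured. One of its 4 probe sets (1421924_at) was at the floor on all 24 arrays, and 1427770_a_at and 1455898_x_at did not exceed 3.75 and 3.46 in any sample. The only tested one (1437052_s_at) read 3.87, 3.03, 4.05 and 3.85 on the control diet and 3.66, 3.27 and 4.50 at 0.1%. It read 3.77 and 3.86 at 0.5%, and 3.27 and 3.00 at 1.0%. The samples at 1.0% lay at the low end but overlapped the control range, with a change of -0.57 ± 0.37 and a 95% interval of -1.36 to 0.23. With a floor of 16 signal units this change was -0.01.

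Slc2a4, the insulin-responsive carrier of muscle and fat, had the largest spread of the tested carriers between samples of a diet, an SD of 0.72. Its measured probe set (1415958_at) read 3.70, 4.79, 5.24 and 3.26 on the control diet. It read 4.34, 5.71 and 5.28 at 0.1%, 4.80 and 5.09 at 0.5%, and 4.98 and 5.12 at 1.0%. No phloridzin sample went as low as the 2 lowest control samples, and the other 2 control samples lay among the phloridzin samples. The changes were 0.86 ± 0.43, 0.70 ± 0.48 and 0.80 ± 0.48 in order of dose, with adjusted p-values of 0.555, 0.973 and 0.797 in limma's test. In the fit that left out control replicate 6 they were 0.53, 0.37 and 0.47. The 2 arrays of the control sample at 3.70 read 4.40 and 3.00, the second of them at the floor. A second probe set (1415959_at) was at the floor on every array. Skeletal muscle markers (5 of 5 measured) summed to 5.50 to 5.85 in the phloridzin samples, against 5.54 to 5.99 in the control samples, and those of adipocytes (4 of 5) to 5.00 to 5.14, against 5.00 to 5.32, with the adipocyte hormone gene Lep at the floor in every sample.

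Slc2a5, the fructose carrier, read 5.62, 5.44, 5.18 and 5.71 on the control diet (1416639_at). It read 6.30, 5.30 and 5.59 at 0.1%, 4.72 and 5.58 at 0.5%, and 5.60 and 5.31 at 1.0%. The lowest value was in the RNA of 0.5% that was also lowest for Slc2a2, and the highest was in 0.1% replicate 2, which was also highest for Slc2a2. The change was 0.24 ± 0.27 at 0.1%, -0.34 ± 0.30 at 0.5% and -0.03 ± 0.30 at 1.0%, with 95% intervals of -0.33 to 0.81, -0.98 to 0.31 and -0.68 to 0.62. Without the low RNA the change at 0.5% was 0.09 and without the other it was -0.76, and without 0.1% replicate 2 the change at 0.1% was -0.04, so single samples set these signs.

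Slc2a8, an intracellular hexose carrier found in many tissues, read 6.50, 6.79, 6.96 and 6.88 on the control diet (1450628_at). It read 6.72, 6.81 and 7.35 at 0.1%, 6.80 and 6.54 at 0.5%, and 6.75 and 6.71 at 1.0%. Only 0.1% replicate 5 lay outside the control range. The change was 0.18 ± 0.18 at 0.1%, -0.12 ± 0.20 at 0.5% and -0.05 ± 0.20 at 1.0%. Their 95% intervals were -0.20 to 0.56, -0.55 to 0.31 and -0.48 to 0.37.

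**Figure D4:**
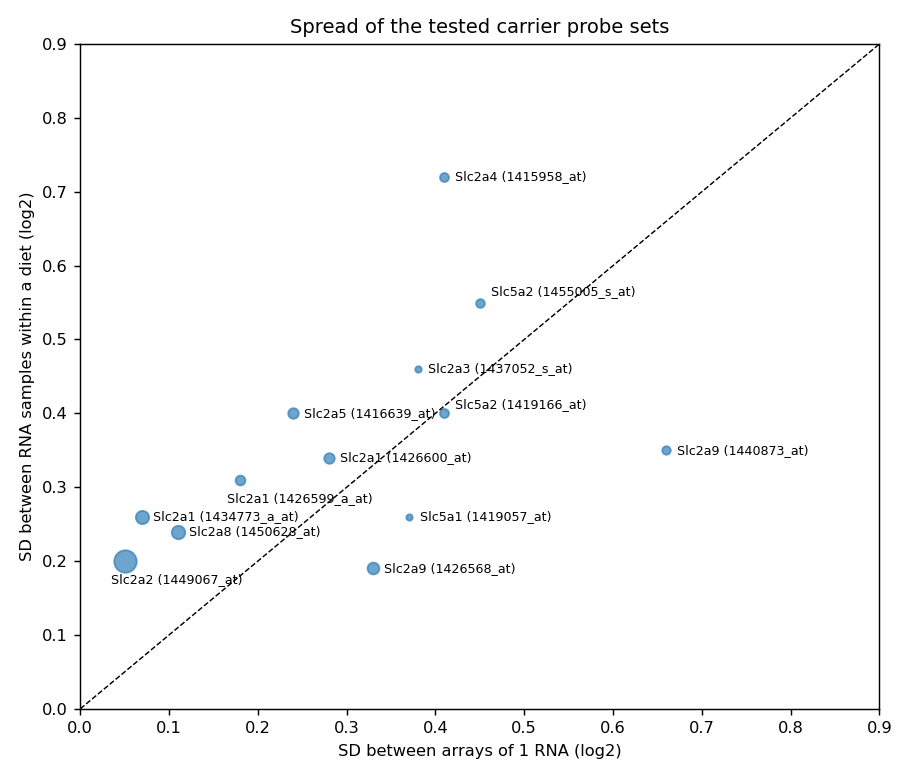
SD between arrays of 1 RNA (horizontal axis, log2 units, 12 degrees of freedom) and SD between RNA samples within a diet (vertical axis, log2 units, 7 degrees of freedom) for the 13 tested carrier probe sets; larger points are brighter probe sets and the dashed line marks equal SDs. Slc2a2 has 0.05 and 0.20, while Slc5a1, both Slc2a9 probe sets and, by a narrow margin (0.41 and 0.40), 1419166_at of Slc5a2 lie on the side where repeated arrays differed more than samples. Taken over near-copies only, the SD between arrays was 0.17 for 1426568_at of Slc2a9, beside 0.19 between samples. For 1419166_at it was 0.37. The SD between arrays is over single arrays, while some samples are averages of arrays, which narrows the SD between samples. The dashed line therefore does not mark where samples stop differing beyond their arrays.

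The spread between repeats separated the carriers into those measured well and those measured poorly. The SD between arrays of 1 RNA was 0.07 for the brightest Slc2a1 probe set, 0.11 for Slc2a8 and 0.24 for Slc2a5. It was 0.41 for Slc2a4, 0.38 for Slc2a3, and 0.41 and 0.45 for the Slc5a2 probe sets. The median over the 13 carrier probe sets was 0.33 between arrays and 0.34 between samples, beside 0.21 and 0.29 over all 22793.

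Slc2a2 and Slc2a5 had the closest patterns of any pair of carriers, with a Pearson correlation of 0.88 over the 11 samples, and Slc2a2 was among the 3 genes most like Slc2a5 of 13117 compared. All such correlations share the arrays, their scaling and the RNA on them, and are given as descriptions. The genes closest to Slc2a2 were N4bp2l1 at 0.94, Sh3bgrl2 at 0.91 and Inmt, which encodes an indolethylamine methyltransferase, at 0.90. Those closest to Slc2a5 besides Slc2a2 were Npc1, a lysosomal cholesterol transporter gene, at 0.90 and Inmt at 0.88. Slc2a8 lay closest to Mrpl38, a mitochondrial ribosomal protein gene, at 0.96. Slc2a1 lay closest to Slc18a1, a vesicular amine transporter gene, at 0.95, and Slc2a9 to Spout1 at 0.87. Other pairs of carriers correlated between -0.46, for Slc5a1 with Slc2a8, and 0.54, for Slc5a2 with Slc2a4.

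The 250 bases before the RefSeq start of Slc2a2 and Slc2a5 are printed because these carriers moved together across samples. They are from the GRCm38.p6 assembly, 5′ to 3′ on the strand of the gene, which is the plus strand for both, at chr3:28697653-28697902 for Slc2a2 and chr4:150119094-150119343 for Slc2a5. Capitals mark matches on either strand to AGGTCA, the core letters that nuclear receptors bind, or to GGGCGG, the core of a GC box.
Slc2a2: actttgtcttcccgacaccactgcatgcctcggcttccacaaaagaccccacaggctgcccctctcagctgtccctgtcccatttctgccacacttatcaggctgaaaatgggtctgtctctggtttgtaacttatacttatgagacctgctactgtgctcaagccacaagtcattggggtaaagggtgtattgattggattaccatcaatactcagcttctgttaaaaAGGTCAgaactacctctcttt
Slc2a5: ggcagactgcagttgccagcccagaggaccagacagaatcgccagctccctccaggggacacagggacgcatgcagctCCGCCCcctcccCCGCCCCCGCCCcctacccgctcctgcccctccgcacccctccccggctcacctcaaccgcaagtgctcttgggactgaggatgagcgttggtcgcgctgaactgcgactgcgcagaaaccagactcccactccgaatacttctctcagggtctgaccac

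Slc2a2 held 1 AGGTCA, with its first letter 21 bases before the start, and no GGGCGG. Slc2a5 held 3 copies of GGGCGG on the minus strand, beginning 172, 160 and 154 bases before the start, and no AGGTCA. The searched motifs do not overlap each other in either window. Neither window held TATAAA, the TATA box, or GTTAAT, an arm of the site of hepatocyte nuclear factor 1. Of 32851 RefSeq windows of this length, 14.0% held AGGTCA, 32.7% GGGCGG, 12.4% TATAAA and 6.43% GTTAAT. Windows were found for 6 of the 9 carriers. Among the other 4 of these, Slc2a9 held 2 copies of AGGTCA, Slc2a1 held 2 of GGGCGG, and Slc5a1 and Slc2a8 held none of the 4 motifs.

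Genes that act next to the carriers gave no call in limma's test either. A list of 18 known regulators of the carriers had 16 measured members and 0 calls at any dose. At an unadjusted p under 0.05 there were 3 of 16 at 0.1% and 0 at 0.5% and 1.0%. All probe sets gave 9.42%, 5.33% and 6.49%. In this list the slope gave 1 of 16 and the F-test 2 of 16, beside 8.63% and 9.8% of all probe sets. Txnip, whose product draws glucose carriers off the cell surface, averaged 8.76 ± 0.16 at 0.1% (SD, n = 3) and 9.22 ± 0.31 on the control diet (SD, n = 4), a change of -0.46 ± 0.15 with an adjusted p of 0.416 in limma's test. Foxa3, a hepatocyte transcription factor that acts on Slc2a2 in mice, averaged 8.06 ± 0.23 at 0.1% (SD, n = 3) and 7.72 ± 0.13 on the control diet (SD, n = 4), a change of 0.34 ± 0.14 and an adjusted p of 0.477 in the same fit. Hnf4a, a regulator of many hepatocyte genes, changed by -0.25 ± 0.14 at 1.0% (adjusted p 0.788). Pdzk1ip1, which encodes a partner protein of the Slc5a2 carrier in kidney, changed by 0.69 ± 0.25 at 0.1%, 0.51 ± 0.29 at 0.5% and 0.36 ± 0.29 at 1.0%, with adjusted p-values of 0.444, 0.953 and 0.853.

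Enzymes and carriers that trap hexoses inside the cell or release them had 7 measured members of 11 listed and 0 calls. At an unadjusted p under 0.05 there were 2 of 7 at 0.1%, 0 at 0.5% and 1 at 1.0%. All probe sets gave 9.42%, 5.33% and 6.49%. For these genes the slope gave 1 of 7 and the F-test 2 of 7, beside 8.63% and 9.8% of all probe sets. Khk, the fructokinase that follows Slc2a5 in fructose use, changed by 0.28 ± 0.10 at 0.1%, -0.17 ± 0.12 at 0.5% and -0.12 ± 0.12 at 1.0%, with limma's adjusted p at 0.446, 0.973 and 0.878. G6pc, the catalytic subunit of glucose-6-phosphatase, which frees glucose for export, changed by -0.61 ± 0.28, -0.20 ± 0.31 and -0.36 ± 0.31 in order of dose, with adjusted p-values of 0.516, 0.982 and 0.864. Hk3, a hexokinase of leukocytes, changed by -0.74 ± 0.21 at 1.0%, with an adjusted p of 0.686. Macrophage and leukocyte markers (6 of 7 measured) summed to 10.47 and 10.48 at 1.0%, against 10.56 to 10.84 in the control samples. Most of this sum was Csf1r, with a mean of 9.84 at 1.0% and 10.12 on the control diet. The means of Cd68 and Lyz2 were also lower at 1.0%, while those of Ptprc, Adgre1 and Itgam were higher. At 0.1% the sum was 10.37 to 10.60, and Hk3 changed there by -0.09 ± 0.19. The part of these markers in the Hk3 value was not tested. Gckr, the inhibitor of liver glucokinase, changed by -0.17 ± 0.10, 0.18 ± 0.11 and -0.01 ± 0.11 in order of dose, with adjusted p-values of 0.616, 0.973 and 0.996.

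Of 16 further Slc2a and Slc5a genes, 15 had a probe set, and 4 of them had enough signal to be tested, with 0 calls. At 1.0%, 1 of the 4 had an unadjusted p under 0.05, beside 6.49% of all probe sets. The slope on dose gave 2 of 4, 1 higher and 1 lower with dose, and the F-test 0 of 4, beside 8.63% and 9.8%. Slc5a3, the sodium-myo-inositol cotransporter, averaged 0.49 ± 0.19 above control at 1.0%, with an adjusted p of 0.722 in limma's test. Slc5a6, a multivitamin carrier, changed by -0.69 ± 0.35 at 1.0%, and Slc5a10 by 0.49 ± 0.32, with adjusted p-values of 0.783 and 0.808. The iodide carrier Slc5a5 changed by 0.07 ± 0.34 at that dose. The 11 others with a probe set, from Slc2a6 to Slc5a12, were below the signal filter in liver.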

How the data were processed

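The members and gene lists were chosen with earlier results of these data known. The deposited table gives a linear intensity per probe set and array; how the authors summarised or scaled it is not given in the sources used here. Per the labels' protocols, total RNA was copied from an oligo(dT) primer and hybridised as biotin-labelled cRNA. Of 45101 probe sets, 34945 had 1 gene in the platform annotation, 932 several and 9160 were unnamed here; 64 control probe sets were left out. All 18 carrier probe sets matched RefSeq (GRCm38.p6) by Entrez identifier, and 0 symbols changed.

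Arrays were quantile-normalized, floored at 8 and log2-transformed. Pairs whose log2 difference had an SD under 0.08 over 1463 genes with a mean above 9 were averaged. The SD was 0.0436 to 0.0577 in 13 such pairs. Sets were joined where the mean absolute difference over the 200 most variable genes (mean above 7) was under 1.2 times that of the remaining genes (ratios 0.938 and 1.18, the next 1.42). The joined pairs of arrays had an SD of 0.108 to 0.137 and the other 255 pairs one of 0.164 to 0.547.

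Probe sets in the lowest 40% by mean log2 (3.31 or less) were not tested. The 22793 remaining single-gene probe sets were fitted in 1 limma model (3.58.1, R 4.3.3; lmFit, eBayes with trend) over 4 diets and 11 samples, with 7 residual degrees of freedom. Tests were two-sided, with Benjamini-Hochberg adjustment over 22793. The test was run on simulated data first. All carrier probe sets are named; of each other list, the 4 lowest F-test p-values; of genes like a carrier, the 3 highest correlations of brightest probe sets. The comparisons between doses were added after seeing the data. Alternatives changed the scaling, floor, filter, repeat rules, model and samples. No scan dates or detection calls were used, and the number of samples limits the precision.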

Additional observations from a re-analysis of the deposited data

Results flagged for a closer look

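One RNA stood outside the comparisons because it was labelled with 2 diets (0.1% replicates 1, 3, 6 together with 1.0% replicate 1). For 7 of the 18 carrier probe sets its mean over 4 arrays lay above every control sample, and for 2 it lay below every one. Of the 13 tested, 7 were above and 1 below, beside 30.2% and 29.8% of all 22793 tested probe sets. Both diets it is labelled with contain phloridzin and cannot be told apart in it. Slc2a8 read 7.41 there, against a highest control sample of 6.96, and its 4 arrays ran from 7.30 to 7.54. The 3 Slc2a1 probe sets read 7.15 (1434773_a_at), 5.60 (1426599_a_at) and 5.87 (1426600_at), against highest control samples of 6.85, 5.24 and 5.79. Slc2a5 read 6.28 against 5.71, with its arrays between 6.19 and 6.36. For Slc5a2 (1455005_s_at) the value was 5.34 against 5.19, and for Slc5a1 (1419057_at) 3.81 against 3.46. All these readings are after scaling. Before it, the arrays of this RNA had medians of 9.49 to 12.6, against 14.1 to 18.0 for the control arrays. The deposited Slc2a8 signals were 112 to 143 there and 113 to 167 on the control arrays. For Slc2a1 (1434773_a_at) they were 96.8 to 133 and 110 to 137. Before scaling, the signals of Slc2a8 and of this Slc2a1 probe set thus overlapped those of the control arrays, on arrays with lower medians. The part of the scaling in their place above control was not tested. The Slc2a2 probe set read 11.48 there, inside the control range of 11.21 to 11.55. Below every control sample were Slc2a9 (1440873_at) at 4.14, against a lowest control sample of 4.32, and Slc2a3 (1427770_a_at) at 3.00, against 3.26. The arrays behind the Slc2a9 value read 4.41, 4.75 and 4.40 under the 0.1% label and 3.00, the floor, under the 1.0% label. Only the array at the floor lay below 4.32. Kept under both labels, this RNA entered at 1.0% as a single array, 1.0% replicate 1. It moved the Slc2a8 change at 1.0% to 0.22, against -0.05 without it. The change of the dimmer Slc2a9 probe set at 1.0% went to -0.77, against -0.25. For that probe set the change at 1.0% against 0.5% also turned, from 0.18 to -0.34. Both Slc2a9 shifts came with that 1 array, which read 3.00, the floor. To which diet this RNA belongs was not tested.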

How the results depend on the processing

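The count of called carrier probe sets was 0 at 0.1%, 0.5% and 1.0%, for the slope and in the F-test under all but 2 of the other settings run, which were 24 for each dose and 23 for the slope and the F-test, including the 11 that left out 1 RNA sample each (range 0 to 0). The exceptions entered all 24 arrays as separate samples, which counts repeats of 1 RNA as replicates. They gave 2 at 0.1%, 1 at 0.5% and 3 in the F-test, and the same counts, 2, 1 and 3, with a replicate block. There Slc2a4 and Slc2a8 passed at 0.1% (limma's adjusted p 0.0408 and 0.0439) and Slc2a9 (1426568_at) at 0.5%, with a change of -0.64. Over all probe sets these settings called 4284 and 4403 at 0.1%, 724 and 645 at 0.5% and 7456 and 7421 in the F-test, against 1, 0 and 2 with repeats averaged. Elsewhere the count over all probe sets was highest without the filter, at 45 at 0.5% and 67 in the F-test, and without joining by fingerprint, at 26 and 66. The replicate numbers did not pair the samples: deviations of same-numbered arrays of different diets correlated between -0.18 and 0.42 (median -0.01, 36 pairs).

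Of 1203 changes against control and slopes recomputed, 94 had the other sign, and of 873 changes between doses 64 did, all short of the threshold. The change of Slc2a9 (1426568_at) at 0.5% ran from -0.79 to -0.50 over its 24 settings, and that of Slc2a4 at 0.1% from 0.53 to 1.25. Without scaling, the median of all probe sets was -0.17, -0.20 and -0.32 in order of dose, and Slc2a2 changed by -0.13, -0.42 and -0.42. With arrays centred on their medians, the median of all was -0.08, -0.10 and -0.17. Levels near 3.00 are set by the floor and have no order.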
